A study of Mus musculus with 4 samples.

Results

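The clustered Fbxw genes of the mouse are a tandem family on chromosome 9, and 10 of them are described here: Fbxw13, Fbxw14, Fbxw15, Fbxw16, Fbxw18, Fbxw19, Fbxw20, Fbxw22, Fbxw24 and Fbxw28. They were chosen by symbol, and all 10 were found among the 23235 genes of the expression table. RNA was measured in 4 libraries, each made from 10 oocytes, with 1 library per group. All groups carried the floxed Dcaf13 alleles (Dcaf13fl/fl) on a C57B6 background, and the deletion groups (Dcaf13fl/fl;Gdf9-Cre) also carried a Cre recombinase driven by the promoter of Gdf9, an oocyte gene. The growing stage was taken at a mouse age of about 14 days. For the fully grown stage the mice were about 23 days old and had received 5 IU of PMSG, a gonadotropin that stimulates follicle growth, 48 h earlier. Stage, age and PMSG cannot be told apart.

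F-box proteins are the exchangeable substrate receptors of SCF ubiquitin ligases. The F-box binds the adaptor SKP1, which sits on the cullin CUL1, while the RING protein RBX1 brings in the ubiquitin-conjugating enzyme. In the Fbxw class the substrate is bound by WD40 repeats. DCAF13 is a nucleolar protein of ribosome assembly and a substrate receptor of a different cullin ligase, CRL4. The labels say nothing of the substrates of the clustered Fbxw proteins.

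The values are FPKM, in which fragments are divided by the length of the transcript and the mapped fragments of the library, so they can be compared between genes, and each is a share of its library and not an amount of RNA per oocyte. In the deposited table the symbols and the values run in different sort orders, and for each of the 10 genes the value belonging to it stands 1 row above its symbol. All values here are re-paired in that way, which is an inference from the values. In the rows around the Fbxw genes (500 on each side, no Fbxw gene included) the lowest value above 0 of weakly expressed genes, which is lower for longer transcripts, correlated with transcript length at r = -0.28 across 333 genes after re-pairing, at -0.18 across 336 genes as deposited and at -0.26 across 332 genes when each deposited symbol took the value 1 row above it, on log scales. Moving the re-paired values by 1 to 3 rows gave -0.14 to 0.06. These Pearson r values are descriptions, and they are weak. The 18 oocyte markers had a median of 1039 FPKM after re-pairing and 8.62 as deposited. A difference between 2 single libraries has no estimate of error and was not tested. A test over all 4 libraries, with genotype and stage as terms, was added after the values were seen.

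Of the 4 libraries, the deletion ones held less Dcaf13, at 96.1 (control) and 38.9 (deletion) FPKM in growing oocytes and 160.2 (control) and 64.0 (deletion) FPKM in fully grown ones. Summed FPKM over all genes was between 649397 and 678437. Each of the 18 oocyte markers reached 1 FPKM in every library. The 9 granulosa and cumulus markers summed to 16.5 to 33.2 FPKM, the 7 theca and stroma markers to 0.499 to 1.23, the 4 immune markers to 1.29 to 3.56 and the 4 red blood cell markers to at most 0.128. The 3 endothelial markers summed to 11.9 to 18.8 FPKM, nearly all of it Pecam1, with Cdh5 listed at 0 in every library.

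The members share sequence beyond their names, and the stretch before the start site shows it. The RefSeq promoter table (build GRCm38.p6) held 8 of the 10 members, without Fbxw13 and Fbxw22. Over 300 bases, from 250 before to 50 after the annotated start, the 28 pairs of these 8 promoters were 83.1% to 97.7% identical at aligned bases, with a median of 90.9%. The promoter of Fbxw17, a related gene on chromosome 13, was 45.7% to 50.7% identical to them. The last 100 bases before the start site are printed for 6 of these members and for Fbxw17 as a contrast, 5′ to 3′ on the gene's strand. The 6 include the most abundant of the 8 (Fbxw24) and the least (Fbxw20), without Fbxw18 and Fbxw19, and are not in strict order of level. The capitals mark AAATCTTTGGCC, one of the longest runs that all 8 member promoters share.
Fbxw24 (chr9:109626060-109626159, minus strand): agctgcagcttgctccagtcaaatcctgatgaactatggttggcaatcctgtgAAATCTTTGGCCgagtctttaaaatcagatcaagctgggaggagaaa
Fbxw15 (chr9:109568263-109568362, minus strand): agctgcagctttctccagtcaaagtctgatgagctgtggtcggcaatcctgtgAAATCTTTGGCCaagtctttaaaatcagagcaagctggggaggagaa
Fbxw16 (chr9:109449141-109449240, minus strand): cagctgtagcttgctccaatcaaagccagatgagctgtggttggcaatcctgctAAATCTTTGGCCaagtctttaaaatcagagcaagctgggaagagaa
Fbxw14 (chr9:109287677-109287776, minus strand): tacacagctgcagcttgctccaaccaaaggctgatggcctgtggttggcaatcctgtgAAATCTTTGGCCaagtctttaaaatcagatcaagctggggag
Fbxw28 (chr9:109339660-109339759, minus strand): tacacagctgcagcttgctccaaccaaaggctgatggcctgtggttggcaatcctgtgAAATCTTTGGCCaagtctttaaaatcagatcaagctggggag
Fbxw20 (chr9:109234755-109234854, minus strand): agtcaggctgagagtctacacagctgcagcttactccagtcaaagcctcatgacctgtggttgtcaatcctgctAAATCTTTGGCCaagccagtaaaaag
Fbxw17 (chr13:50417764-50417863, plus strand): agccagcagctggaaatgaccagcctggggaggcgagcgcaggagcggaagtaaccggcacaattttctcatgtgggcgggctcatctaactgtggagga

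The printed stretches of Fbxw14 and Fbxw28 are identical over all 100 bases. The first base of AAATCTTTGGCC lay between -71 (Fbxw19) and -26 (Fbxw20) from the annotated starts, which are not set at the same aligned base. On either strand it was in 0.0399% of the 32544 distinct promoters of the table, held by 12 genes. These were the 8 members, their chromosome 9 neighbours Fbxw21 and Fbxw26, and 2 genes that are no Fbxw gene. A second run of the same length, GACTTAGGCCAC, had its first base between -10 and 35 from the starts of the same 8 genes and was in 0.0369% of all promoters, all of them Fbxw genes. Both runs were picked out after the sequences were seen.

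Six-letter motifs from a list of sites that oocyte factors or the general machinery are known to use were searched on both strands of the same 300 bases. The E-box CANNTG, the kind of site bound by helix-loop-helix factors such as FIGLA, was in 8 of the 8 member promoters and in 72.3% of all promoters. TATAAA, the TATA box, was in none of the 8 and in 13.6% of all promoters. CACCTG, itself an E-box and so part of the CANNTG count, was in none and in 20.3% of all. The homeodomain sites TAATTG (8.01% of all promoters) and TAATTA (5.29%) were in none of the 8, and TGATTG (14% of all) was in the promoter of Fbxw16 alone. A match is a string of letters and does not show binding. The 8 promoters are also near copies of each other, so these counts are not 8 separate observations.

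In mm9, the build of the deposited table, the 10 genes lie on the minus strand of chromosome 9 from 109081741 to 109605214, a span of 523 kb. With Fbxw21 before and Fbxw26 after them they form a block of 12 Fbxw genes over 607 kb (chr9:109041968-109648603) with no other gene of the table inside it. All 12 were abundant. Fbxw21, at the lower end, stood at 637 (control) and 606 (deletion) FPKM in growing oocytes and 669 (control) and 553 (deletion) FPKM in fully grown ones. Fbxw26, at the upper end, stood at 348, 305, 292 and 249 FPKM in the same order. The genes next to the block were near 0. Plxnb1, which encodes a semaphorin receptor, was at 0.879 to 1.71 FPKM on one side, and Spink8, a protease inhibitor gene, at 0 to 0.700 FPKM on the other. The map of the block shows the step at both edges. Farther out, Ccdc72 was at 90.9 to 113.7 FPKM and Nme6 at 34.1 to 36.0 FPKM, so not all of the neighbourhood was silent.

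**Figure D1:**
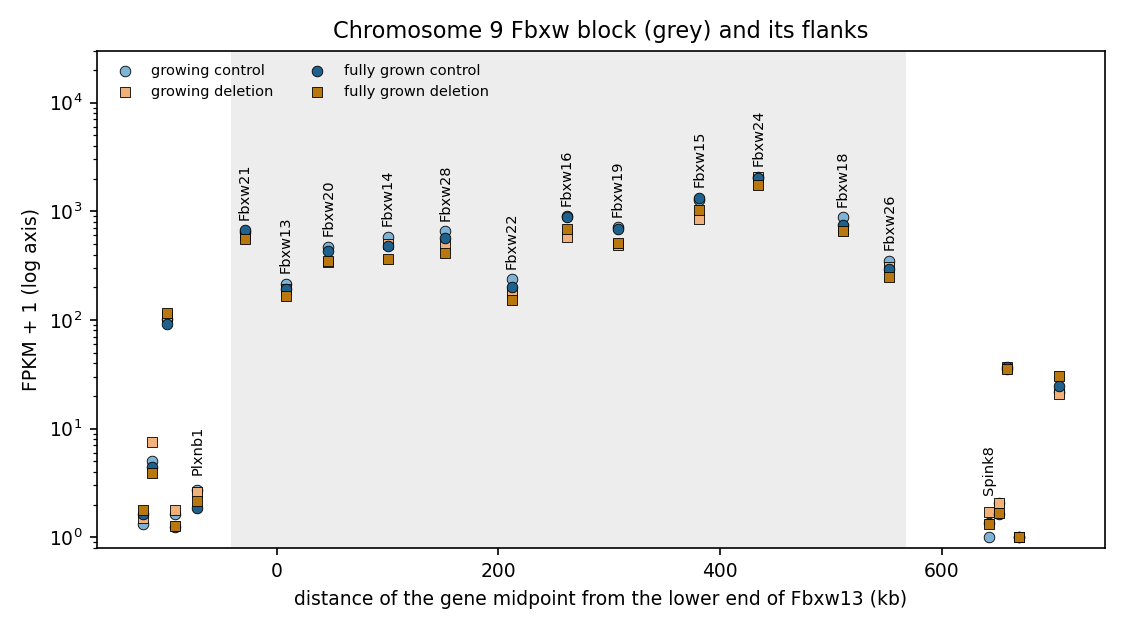
FPKM + 1 (log axis) of the 12 genes of the chromosome 9 Fbxw block and of the 5 nearest genes on each side, against the distance of each gene's midpoint from the lower end of Fbxw13 in kb, with 1 point per library. The 12 block genes sit between 150.2 and 2081 FPKM, and the genes next to the block, Plxnb1 and Spink8, at 1.71 FPKM or less.

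The members made up 1.23% (control) and 0.960% (deletion) of all FPKM in growing oocytes and 1.12% (control) and 0.894% (deletion) in fully grown ones. Their median was 681, 497, 624 and 461 FPKM in the same order, while genes at 5 FPKM or more had medians of 21.8 to 22.8 FPKM. Fbxw24 was the most abundant, at 2069 (control) and 2081 (deletion) FPKM in growing oocytes and 2012 (control) and 1734 (deletion) FPKM in fully grown ones, and ranked between place 26 and place 35 of all genes. The least abundant member in a library ranked between place 570 and place 842.

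The order of the levels was nearly the same in the 4 libraries, as the plot of levels by gene shows. Fbxw24 stood above Fbxw15 in every library, and their ranges over the 4 libraries did not overlap. Fbxw15 was at 1273 (control) and 850 (deletion) FPKM in growing oocytes and 1325 (control) and 1036 (deletion) FPKM in fully grown ones. Then came 6 genes whose ranges overlapped from each to the next, and the first of them, Fbxw16, also overlapped with Fbxw15. Fbxw16 stood at 900 (control) and 579 (deletion) FPKM in growing oocytes and 880 (control) and 693 (deletion) FPKM in fully grown ones. Fbxw18 stood at 876, 683, 741 and 654 FPKM in the same order, and was above Fbxw16 in growing deletion oocytes alone. Fbxw19 stood at 709, 489, 684 and 512 FPKM.

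Fbxw28 was at 653 (control) and 499 (deletion) FPKM in growing oocytes and 564 (control) and 410 (deletion) FPKM in fully grown ones. Fbxw14 was at 578, 496, 477 and 363 FPKM, below Fbxw28 in every library. Fbxw20 was at 471, 342, 427 and 349 FPKM. A gap without overlap separated Fbxw20 from the last members. Fbxw22 was at 235, 180, 200 and 150 FPKM, and Fbxw13 at 213, 190, 192 and 166 FPKM, with each of the pair above the other in 2 libraries. Across the 10 members the log2 levels of any 2 libraries correlated at r = 0.970 to 0.996, a description over genes that share the libraries.

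**Figure D2:**
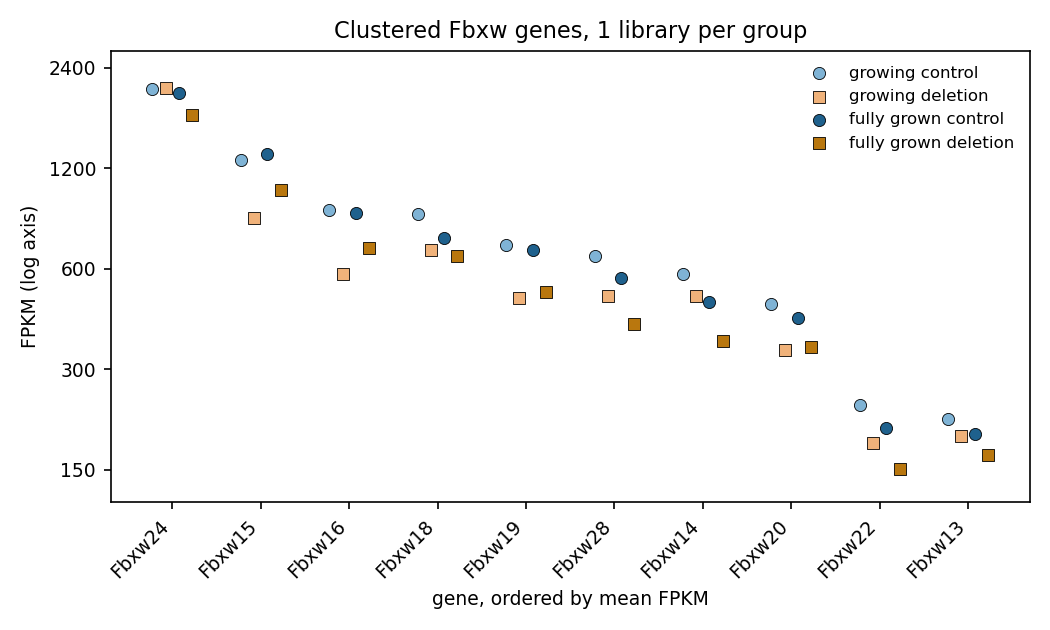
FPKM (log axis) of the 10 clustered Fbxw genes, ordered by mean, with 1 point per library (circles for control, squares for deletion, light for growing and dark for fully grown). For 8 of the 10 genes both circles lie above both squares, an order seen for 13.7% of the 8235 genes at 5 FPKM or more in any library.

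The members are close paralogs, which bears on how far their values can be told apart. Their coding sequences (GENCODE M21) were 1392 to 1407 bases long and 79.1% to 99.1% identical between members over 45 pairs, with a median of 83.5%. The closest pair was Fbxw14 and Fbxw28 at 99.1%, and the next Fbxw14 and Fbxw22 at 92.6%. The share of a transcript's 50-base windows found in a transcript of another gene was 67.6% for Fbxw14 and 67.1% for Fbxw28, in both cases mostly with each other, and 5.77% to 15.4% for the other 8 members. With 100-base windows the shares were 44.8% and 46.2% for this pair and 2.29% or less for the other 8. The read length and the handling of reads with several matches are not stated in the labels or the processing notes, so the values of Fbxw14 and Fbxw28 are uncertain one by one. Summed, the pair stood at 1231 (control) and 995 (deletion) FPKM in growing oocytes and 1041 (control) and 774 (deletion) FPKM in fully grown ones.

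**Figure D3:**
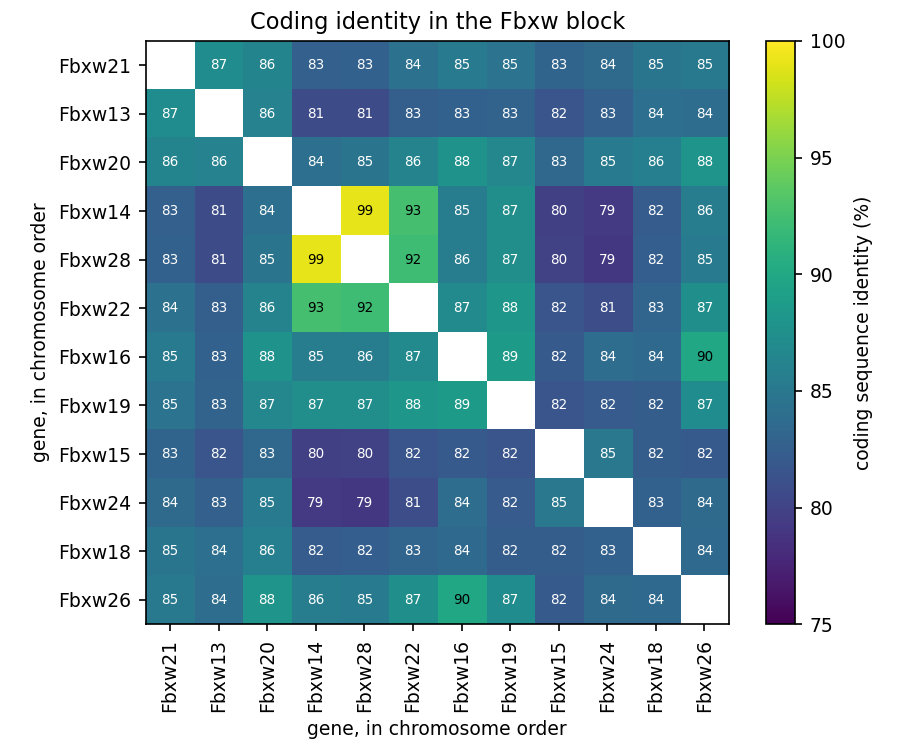
Identity of the coding sequences (percent of aligned bases, colour scale from 75 to 100) between the 12 genes of the Fbxw block in chromosome order. Fbxw14 and Fbxw28 stand out at 99.1%, followed by the pairs of Fbxw22 with these genes at 92.6% and 92.2%.

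Setting deletion against control in growing oocytes asks what the loss of Dcaf13 does during growth. Summed over the 10 members, FPKM was 7976 in control and 6390 in deletion oocytes, which is 80.1% of control. Of the 10 members 9 stood below control, where 41.5% of all genes did, and Fbxw24 (2081 against 2069 FPKM) lay level with it. The members with the lowest values relative to control were Fbxw16 at 64.4%, Fbxw15 at 66.8%, Fbxw19 at 68.9% and Fbxw20 at 72.7%. Fbxw22, Fbxw28 and Fbxw18 were at 76.5%, 76.4% and 78.0% of control, and Fbxw14 and Fbxw13 at 85.8% and 89.1%.

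As differences in log2(FPKM + 1), a scale on which the pseudocount of 1 hardly matters at these levels, the members spanned -0.63 to 0.01 with a median of -0.39. The median over the 8010 genes that reached 5 FPKM in 1 or both of these libraries was 0.08. The member median was at or above that of 12.5% of these genes. No member was past the size rule, a difference of at least 1 on the log2 scale, which is 2-fold. The rule took in 5.13% of the genes, 2.51% as lower and 2.62% as higher. The 9 granulosa and cumulus markers also summed lower in growing deletion oocytes, at 16.5 against 33.2 FPKM, mostly through Cyp19a1 (7.75 against 17.7 FPKM), the aromatase gene. Inhba was listed at 0 in growing deletion oocytes, Inha was at 2.16 against 6.53 FPKM and Nr5a2 at 4.88 against 5.87. In log2(FPKM + 1), Inha (-1.25) and Cyp19a1 (-1.10) were past the size rule. The part of the granulosa and cumulus markers in the result was not tested. In pools of oocytes, fewer oocytes with an RNA and less of it per oocyte cannot be told apart.

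Setting deletion against control in fully grown oocytes asks the same at the end of growth, and this comparison shares no library with the first. All 10 members stood below control, where 45% of 7413 genes did, with a sum of 6067 against 7502 FPKM, which is 80.9% of control. The lowest relative to control were Fbxw28 at 72.7%, Fbxw19 at 74.9%, Fbxw22 at 75.1% and Fbxw14 at 76.3%. Fbxw15 and Fbxw16 were at 78.2% and 78.8%, and Fbxw20 at 81.7%. Fbxw24, Fbxw13 and Fbxw18 were nearest to control, at 86.2%, 86.3% and 88.3%. The differences in log2(FPKM + 1) spanned -0.46 to -0.18 with a median of -0.35, against a median of 0.04 over all these genes. No member was past the size rule, which took in 2.17% of the genes, 1.09% as lower and 1.08% as higher. Here the granulosa and cumulus markers summed to 28.4 FPKM in deletion and 26.4 in control oocytes.

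Below control at both stages were 9 of the 10 members, and 27.8% of the 7188 genes that reached 5 FPKM in both comparisons. Both control libraries were above both deletion libraries for 8 members, and for 13.7% of the 8235 genes at 5 FPKM or more in any library. The exceptions were Fbxw24 and Fbxw14, whose growing deletion value (496 FPKM) was above its fully grown control value (477 FPKM). Taken individually, the values of Fbxw14 and Fbxw28 are uncertain. Their sum had both controls (1231 and 1041 FPKM) above both deletion libraries (995 and 774 FPKM). Fbxw15 and Fbxw16 were farther below control in growing than in fully grown oocytes, with differences between the log2 values of the stages of 0.23 and 0.29. Fbxw18 (0.18), Fbxw20 (0.17) and Fbxw19 (0.12) went the same way. It was the other way for Fbxw24 (-0.22), Fbxw14 (-0.17), Fbxw28 (-0.07), Fbxw13 (-0.04) and Fbxw22 (-0.02). None of these differences between the stages was tested. Of the 18 oocyte markers, led in level by H1foo, Dppa3 and Zp3, 7 lay below control in growing and 9 in fully grown deletion oocytes, with medians of 0.10 and -0.02. The neighbours Fbxw21 (-0.07 in growing and -0.27 in fully grown oocytes) and Fbxw26 (-0.19 and -0.23) also lay below control at both stages in log2(FPKM + 1).

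**Figure D4:**
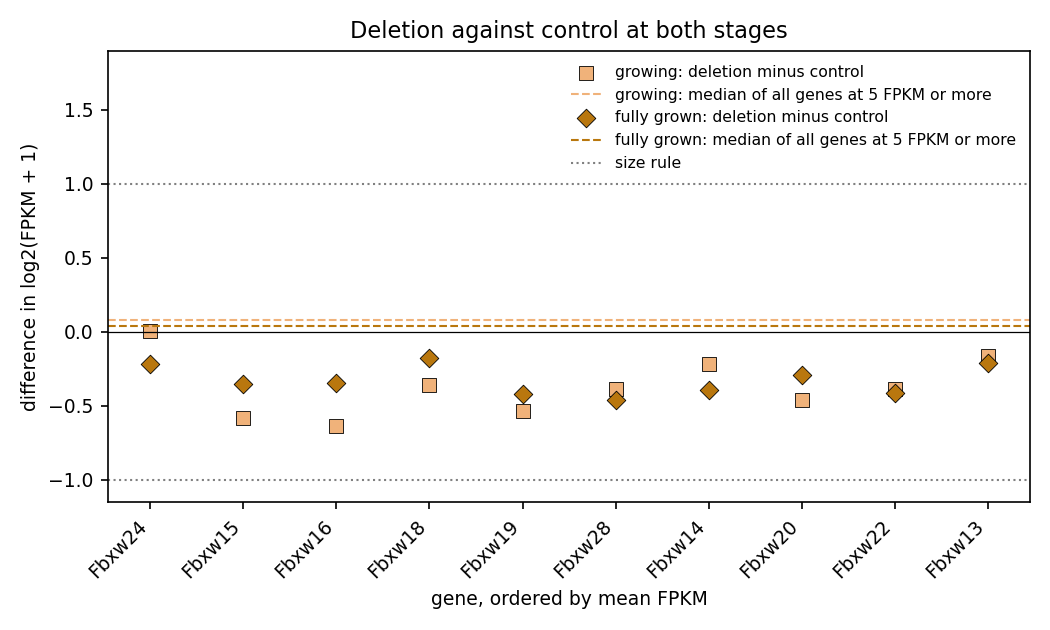
Difference between deletion and control in log2(FPKM + 1) for each member, in growing (squares) and fully grown (diamonds) oocytes, with the median of all genes at 5 FPKM or more as dashed lines and the size rule as dotted lines. Of the 20 points, 19 lie below 0 and none reaches the size rule.

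Over all 4 libraries, log2(FPKM + 1) was fitted with limma on stage and genotype, which sets deletion against control within each stage. The fit leaves 1 residual degree of freedom, which is how far the genotype difference varies between the stages, so the error is taken almost wholly from other genes. Of the members 5 were lower with an adjusted p under 0.05 (limma, Benjamini-Hochberg over 8235 genes) and none was higher, against 7.16% of all genes called, 3.23% as lower and 3.93% as higher. By limma Fbxw16 differed by -0.49 ± 0.09 (SE, adjusted p = 0.00200), Fbxw19 by -0.48 ± 0.09 (adjusted p = 0.00315) and Fbxw15 by -0.47 ± 0.07 (adjusted p = 0.000769). Fbxw28 differed by -0.42 ± 0.09 (limma, adjusted p = 0.00908) and Fbxw20 by -0.38 ± 0.10 (adjusted p = 0.0314), all lower in both stages. The other 5 ranged from -0.40 (Fbxw22) to -0.10 (Fbxw24), with adjusted p from 0.0547 to 0.392 in limma. Among these 5 was Fbxw14 (-0.31 ± 0.10), whose transcript shares much of its sequence with that of Fbxw28. No member was called by limma after removal of the trend with GC and length, described next, where 6 had an unadjusted p under 0.05. Of all genes 186 of 7435 were called there, 121 of them as lower. With no minimum level 0 of 18079 genes were called, so the lack of called members there is not particular to them.

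The differences in both deletion comparisons ran with the base composition of transcripts. Across genes the difference in log2(FPKM + 1) correlated with transcript GC content, with Spearman's rho of 0.37 in growing and 0.41 in fully grown oocytes, as a description over 7227 and 6683 genes. Members have low GC content, 43.5% to 45.7%, against a median of 50.1% in the growing comparison. After removal of the trend with GC and length the median of the members was -0.27 in growing and -0.23 in fully grown oocytes, with 9 and 10 members below 0, where 41.3% and 45.9% of genes were. In the limma fit over 4 libraries the lowest adjusted p of a member was then 0.0880 (Fbxw16, -0.39).

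Over growth in controls the sum of the members was nearly level, before any trend was removed. Their sum was 7502 FPKM in fully grown and 7976 in growing control oocytes, which is 94.0%. Of the 10 members 9 stood below growing oocytes, where 56% of 7661 genes did, and Fbxw15 stood at 104.1%. The differences in log2(FPKM + 1) spanned -0.28 (Fbxw14) to 0.06 (Fbxw15), with a median of -0.15 against -0.06 for all genes. After removal of the trend with GC and length the median was -0.31, with 10 below 0, against -0.06 and 57.6% for all genes. No member was past the size rule, which took in 4.18% of genes, 3.07% as lower and 1.11% as higher.

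Over growth under the deletion the sum was 6067 FPKM in fully grown and 6390 in growing oocytes, which is 94.9%, but the members went apart. Fbxw15 and Fbxw16 stood at 121.8% and 119.6% of their growing value, Fbxw19 at 104.8% and Fbxw20 at 101.9%. The other 6 stood below it, from Fbxw14 at 73.2% to Fbxw18 at 95.8%. The median difference in log2(FPKM + 1) was -0.13 against -0.07 over 7957 genes, of which 55.9% lay below 0. After removal of the trend with GC and length the median was -0.27, with 8 below 0, against -0.06 and 54.9% for all genes. No member was past the size rule, which took in 11.4% of genes, 8.75% as lower and 2.7% as higher. This comparison shares each of its libraries with one of the deletion comparisons, so the values of Fbxw15 and Fbxw16 in growing deletion oocytes enter both. The granulosa and cumulus markers summed to 28.4 FPKM in fully grown and 16.5 in growing deletion oocytes, and their part here was not tested either. Among them Cyp19a1 (1.03) was past the size rule. Of the oocyte markers, Ddx4 (-2.18) and Figla (-1.17) were past the size rule here, and Ddx4 also over growth in controls (-1.30).

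In the same limma fit 1 member, Fbxw14, was lower in fully grown than in growing oocytes, by -0.36 ± 0.10 (SE, adjusted p = 0.0116), and none was higher, against 20.2% of all genes called, 13.1% as lower and 7.12% as higher. A share of 1 in 10 members is not above that of all genes. The value of Fbxw14 is uncertain apart from that of Fbxw28, which differed by -0.25 ± 0.09 and was not called.

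The other Fbxw genes outside the chromosome 9 block were lower. Fbxw4 was the most abundant of them, at 95.4 (control) and 53.6 (deletion) FPKM in growing oocytes and 120.7 (control) and 109.3 (deletion) FPKM in fully grown ones, and was past the size rule in growth under the deletion (1.01). Btrc, which encodes the beta-TrCP receptor, was at 41.0 to 45.4 FPKM and Fbxw17 at 13.4 to 18.1. Fbxw11, the second beta-TrCP gene, was at 6.49 to 14.8 FPKM and Fbxw7, a receptor for cyclin E, at 3.63 to 5.04. Fbxw2 was at 0.832 to 2.29 FPKM. Of the list of other Fbxw genes with Btrc, 12 were in the table, including the block genes Fbxw21 and Fbxw26. In growing deletion oocytes 5 of the 10 at the minimum lay below control, with a median of 0.19 in log2(FPKM + 1), and in fully grown ones 4 of 9, with a median of 0.17. Fbxw8 (-1.14) was the other one past the rule, in growth under the deletion.

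The partners of F-box proteins in the SCF ligase differed widely in level. Skp1a, the adaptor gene, was at 2926 (control) and 2471 (deletion) FPKM in growing oocytes and 3047 (control) and 2468 (deletion) FPKM in fully grown ones. Both controls were above both deletion libraries for Skp1a, as for 13.7% of genes at 5 FPKM or more in any library. Cul1, the scaffold, was at 265, 251, 292 and 252 FPKM in the same order. Nedd8, the modifier that activates cullins, was at 490, 593, 499 and 566 FPKM, with both deletion libraries above both controls, an order not counted over all genes. At the other end Cand1, which exchanges F-box proteins on CUL1, was at 15.4 to 17.1 FPKM and the ubiquitin-conjugating enzyme gene Ube2r2 at 2.42 to 6.01. Of the list of the SCF core and its neddylation, 5 of 12 lay below control in growing and 7 of 11 in fully grown deletion oocytes, with medians of 0.14 and -0.17 in log2(FPKM + 1) and none past the rule. In growth under the deletion, Rnf7, a paralog of Rbx1, and Ube2m, a NEDD8-conjugating enzyme, were past it at -1.07 and -1.01.

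The remaining F-box genes, 55 with a symbol in Fbxo or Fbxl, were lower than the members. The most abundant were Fbxl6 at 118.1 to 149.6 FPKM, Fbxo34 at 94.4 to 121.9 and Fbxo5, which encodes the APC/C inhibitor EMI1, at 74.1 to 118.8. Of those at the minimum, 21 of 36 lay below control in growing and 17 of 34 in fully grown deletion oocytes, with medians of -0.07 and -0.01 in log2(FPKM + 1) and none past the size rule. In growth under the deletion, Fbxo15 (1.44), Fbxo25 (-1.03) and Fbxl15 (-1.92) were past it.

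The genes whose pattern over the 4 libraries was most like the sum of the members were sought among 3351 other genes at 20 FPKM or more in all 4, by the Euclidean distance of log2(FPKM + 1) centred on each gene's mean. The nearest were Dynll1, a dynein light chain gene, then Jkamp, the F-box gene Fbxo46, E330011O21Rik and E330017A01Rik, at distances of 0.048 to 0.093. Dynll1 stood at 191.9 (control) and 156.8 (deletion) FPKM in growing oocytes and 187.3 (control) and 145.1 (deletion) FPKM in fully grown ones. Many patterns over 4 libraries are alike. Fbxw21 and Fbxw26 came at places 93 and 151.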

How the data were processed

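Polyadenylated RNA of 10 oocytes per library was converted to cDNA by a modified Smart-seq2 protocol and made into libraries with Tn5 transposase, per the labels' protocols. The authors deposited FPKM values with 1 row per symbol, and no depth is stated. Per the submitters' processing notes, the tools were Cufflinks 2.2.1, Bowtie2 2.1.0, TopHat2 2.0.11 and CASAVA 1.8, and the build was mm9, with no roles or settings. Gene models and strand handling are not stated. The 4 per-sample tables were identical to the whole table.

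Symbols sorted in byte order were paired with the value rows in file order, which kept 4113 of 23235 rows. Differences were taken in log2(FPKM + 1). The size rule asked for 5 FPKM in either library and a difference of at least 1. No difference between 2 single libraries was tested. A fit of log2(FPKM + 1) on stage and genotype over the 4 libraries (limma 3.58.1 with trend, genes at 5 FPKM or more in any library) was added after seeing the data. It was tested on simulated data with planted changes larger than any difference of a member. That test does not show how the fit performs at the size of the members' differences. Named genes were the members, Dcaf13, chromosome 9 neighbours by position, the 3 most abundant and those past the size rule in each list, and the 5 most alike. Departing from that rule, further Fbxw and SCF genes are named for their place in the family or their low level and Inhba for its 0, and the theca, immune and red blood cell lists are given as sums, chosen after their values were seen. The members and lists were chosen with earlier results of these data known.

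The table's starts count from 0 and are given here 1 higher. Coding sequences and promoters were aligned with MAFFT 7.526, and identity excludes gaps. GC content came from 1 GENCODE M21 transcript per gene, matched by symbol for 90.2% of genes at the minimum. Its trend was removed by a quadratic fit on GC and log2 length. The counting and the trend removal were tested on simulated data. Alternatives were a pseudocount of 0.1 or 5, a minimum of 1 FPKM or none, rescaling by the median ratio, the pairing as deposited and the removed trend.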

Additional observations from a re-analysis of the deposited data

Results flagged for a closer look

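In 4 cases a member lay on opposite sides of 0 in comparisons of the same kind, in log2(FPKM + 1). Each rests on 1 library per group, and none of the differences was tested. How many of all genes crossed 0 in this way was not counted, so the 4 cases are not set apart from other genes. Over growth, Fbxw16 stood at -0.03 in control and 0.26 in deletion oocytes, a difference of 0.29. Fbxw19 stood at -0.05 and 0.07, a difference of 0.12, and Fbxw20 at -0.14 and 0.03, a difference of 0.17. In deletion against control, Fbxw24 stood at 0.01 in growing and -0.21 in fully grown oocytes, a difference of -0.22. Each crossing was lost under an alternative and kept under another. With rescaling by the median ratio Fbxw16 stood at 0.00185 and 0.28, and Fbxw24 at -0.04 and -0.28. With the GC and length trend removed Fbxw19 stood at -0.23 and -0.075, and Fbxw20 at -0.28 and -0.08. The crossings of Fbxw16 (-0.205 and 0.12) and Fbxw24 (0.11 and -0.09) stayed with the trend removed. Those of Fbxw19 (-0.02 and 0.09) and Fbxw20 (-0.11 and 0.05) stayed with rescaling.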

How the results depend on the processing

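No member was past the size rule in any comparison under a pseudocount of 0.1 or 5, a minimum of 1 FPKM or none, rescaling by the median ratio, or removal of the GC and length trend (chosen after seeing the data). With the pairing as deposited, 1 member, Fbxw28, was past it in growth under the deletion (1.01 in place of -0.28), because that pairing gives it the row read here as Fbxw4. Of the 20 deletion differences 19 were below 0. With rescaling there were 20, and with the trend removed 19. Rescaling also raised the share of all genes below 0, from 41.5% to 46.9% in growing deletion oocytes. In fully grown deletion oocytes it raised that share from 45% to 52.7%, so the rise to 20 is not particular to the members. With the pairing as deposited 16 of the 20 were below 0, and the member medians were -0.21 and -0.25. As deposited, Fbxw16 (18.1 FPKM) and Fbxw19 (2.04 FPKM) in growing control oocytes would not be abundant. The number of all genes past the rule moved more: from 123 to 700 in place of 411 (growing deletion), 62 to 276 in place of 161 (fully grown deletion), 106 to 558 in place of 320 (growth in controls) and 366 to 1456 in place of 911 (growth under the deletion), lowest with a pseudocount of 5 and highest with no minimum or a minimum of 1 FPKM. In the limma fit over 4 libraries, 5 members were called in deletion against control, among 590 of 8235 genes called. With a pseudocount of 0.1 there were 8 (778 of 8235 genes), and with rescaling 8 (496 of 8205). A pseudocount of 5 gave 7 (675 of 8235 genes), and a minimum of 1 FPKM gave 4 (146 of 11806). With the pairing as deposited 3 of the 9 members in the fit were called (590 of 8235 genes). With the trend removed there were 0 (186 of 7435 genes), with 6 members at an unadjusted p under 0.05. With no minimum 0 of 18079 genes were called, and 8 members had an unadjusted p under 0.05. In fully grown against growing 1 member was called, among 1664 of 8235 genes called. With the trend removed there were 3 (1172 of 7435 genes), and as deposited 2 of the 9 in the fit (1664 of 8235). With no minimum there were 0 (1 of 18079 genes), with 3 members at an unadjusted p under 0.05. As deposited, Fbxw16 turned to 0.0632 in deletion against control, and Fbxw14 to 0.17 and Fbxw28 to 0.67 over growth. That fit pairs deletion with control within each stage. Leaving out a library leaves it no residual degree of freedom. Single libraries of unknown depth limit every value. The labels number no replicates.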
